A study of Mus musculus with 4 samples.

Results

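The calcium/calmodulin-dependent kinases described here are 10 genes, chosen by name and matched to their Ensembl identifiers, out of 26328 genes listed in at least 1 hippocampal sample. They are the genes of the 4 subunits of CaMKII (*Camk2a*, *Camk2b*, *Camk2d* and *Camk2g*), *Camk1*, *Camk1d* and *Camk1g* of the CaMKI group, *Camk4*, and the upstream kinases *Camkk1* and *Camkk2*. Poly(A) RNA from the hippocampus of male C57BL/6 mice was sequenced in 2 wild-type (WT) and 2 *Lsd1* knock-in (KI) samples. The KI allele (*Lsd1* SA/SA) puts alanine in place of the serine of the histone demethylase LSD1 that PKCα phosphorylates, in the germ line and therefore in all cells, and the WT samples carry the unaltered gene. KI and WT mice were littermates, and mice of 8 to 15 weeks were used for behaviour. The age of the mice behind each RNA sample was not given separately in the sources used here, nor was the number of mice in a sample, so a p-value measures only the spread between these 4 samples. No treatment was named for any of the 4 samples. The comparison asks whether the kinases that read out neuronal calcium were expressed at another level in the KI hippocampus.

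These kinases are switched on when calcium entering a neuron binds calmodulin and the complex displaces the inhibitory segment of the kinase. CaMKII assembles into a ring of many subunits that phosphorylate one another and can stay active after calcium has fallen, and it is known for its abundance at excitatory synapses and its role in hippocampal long-term potentiation. CaMKI and CaMKIV act as single subunits, and they reach full activity only after a CaMK kinase has phosphorylated them, a cascade that leads to CREB-dependent transcription in the nucleus and to growth of neurites in the cytoplasm.

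Expression was given as RPKM, a read count divided by the exon length in kb and by the depth of the sample. The steps between RPKM values corresponded to whole reads for every gene, within a tolerance of 0.0001 of a read, and gave 8827967 mapped reads in WT replicate 2 and between 13414957 and 14949756 in the other samples. *Kdm1a*, the gene that encodes LSD1, was at 11.6 and 11.2 RPKM in WT and 10.97 and 11.2 RPKM in KI. The log2 fold change of KI against WT was -0.039 (95% interval -0.19 to 0.11), and the amino acid change itself cannot be seen in these values. The markers of hippocampal excitatory neurons were present in all samples, with a summed level of 715 and 727 RPKM in WT and 676 and 686 RPKM in KI.

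All 10 kinases were listed in every sample, and their mean levels spanned a range of 245-fold. *Camk2a*, the CaMKII α subunit, had the highest level, with a mean of 593 RPKM over the 4 samples and rank 40 among all genes listed. *Camk2b* followed at 171 RPKM (rank 211), *Camk2g* at 54.9 RPKM, *Camkk1* at 48.8 RPKM, *Camk1d* at 34.4 RPKM and *Camkk2* at 28.2 RPKM. The lower part of the order held *Camk4* at 9.36 RPKM, *Camk1g* at 7.82 RPKM, *Camk1* at 6.85 RPKM and *Camk2d* at 2.42 RPKM (rank 13138). Of the 9 pairs of neighbours in this order, 7 had ranges over the 4 samples that did not touch. The other 2 pairs, *Camk2g* with *Camkk1* and *Camk1g* with *Camk1*, had ranges that overlapped. Within samples, *Camk2g* was above *Camkk1* in 4 of 4 and *Camk1g* above *Camk1* in 3 of 4. These levels are per exon length, and the order rests on the length used. For 4 kinases the exon length of GENCODE M21 gave whole reads, and for the other 6 the smallest length that did so was taken. It was 12331 bp for *Camk4*, against 3259 bp in GENCODE M21. For *Camk2g* it was 3703 bp against 6401 bp, and for *Camkk2* 4843 bp against 10921 bp. The places of these kinases in the order, that of *Camk2g* above *Camkk1* included, thus depend on the annotation. For these 6 (*Camk2d*, *Camk2g*, *Camk1*, *Camk1g*, *Camk4* and *Camkk2*) a multiple of the length taken would also give whole reads, and the reads would then be the same multiple higher. Their RPKM would not change, but their counting intervals would be narrower and their weights in tests on reads would differ.

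**Figure D1:**
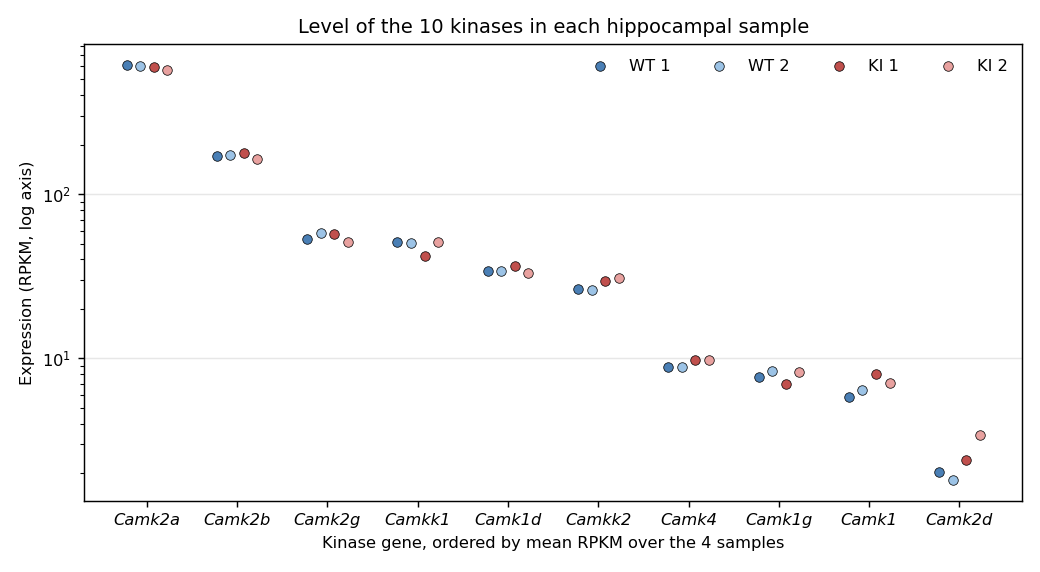
Expression of the 10 kinase genes in RPKM on a log axis, with 1 point for each of the 2 WT and 2 KI hippocampal samples and the genes ordered by their mean. The level falls from 593 RPKM for *Camk2a* to 2.42 RPKM for *Camk2d*, and within each gene the 4 points lie close together compared with the steps between most genes.

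By the ratio of mean RPKM, most of these kinases differed little between KI and WT. For several of them the limma interval did not exclude a difference of 1.2-fold. In limma on log2(RPKM + 1) across 18436 genes, 0 of the 10 kinases passed an adjusted p under 0.1 with a difference of at least 1.2-fold, as did 0 of all genes (0.0%), and the smallest adjusted p among the kinases was 0.441. Because no gene at all passed in this fit, the count of 0 among the kinases does not show that they were unchanged. Without adjustment, 2 of 10 kinases (*Camkk2* and *Camk1*) were under 0.05, against 1774 genes or 9.62% of all genes. By the ratio of mean RPKM, 8 of the 10 kinases differed by less than 1.2-fold, and *Camk2d* and *Camk1* by more. The limma interval reached past 1.2-fold upward for *Camk2d*, *Camk1*, *Camkk2* and *Camk4*, and downward for *Camk1g* and *Camkk1*. Both KI values were above both WT values in 4 kinases (*Camk2d*, *Camk1*, *Camkk2* and *Camk4*), against 24.0% of all genes, and below in 1 (*Camk2a*), against 18.1% of all genes. In the other 5 the groups overlapped. The median log2 fold change of the 10 was 0.0075, beside 0.013 over all genes tested. A test that weighs each gene by its reads, limma voom on the whole reads, was added after the data had been seen. It gave 278 genes past the same thresholds among the 15960 with at least 10 reads in every sample, 208 higher in KI (1.3%) and 70 lower (0.439%). *Camk2d* and *Camk1* were among those higher, and no kinase was among those lower. A fit with 1 sample left in a group takes its spread from the other group alone, so such fits cannot show whether these calls hold. In them the voom difference of *Camk2d* ran from 0.31 to 0.82 and that of *Camk1* from 0.23 to 0.40.

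**Figure D2:**
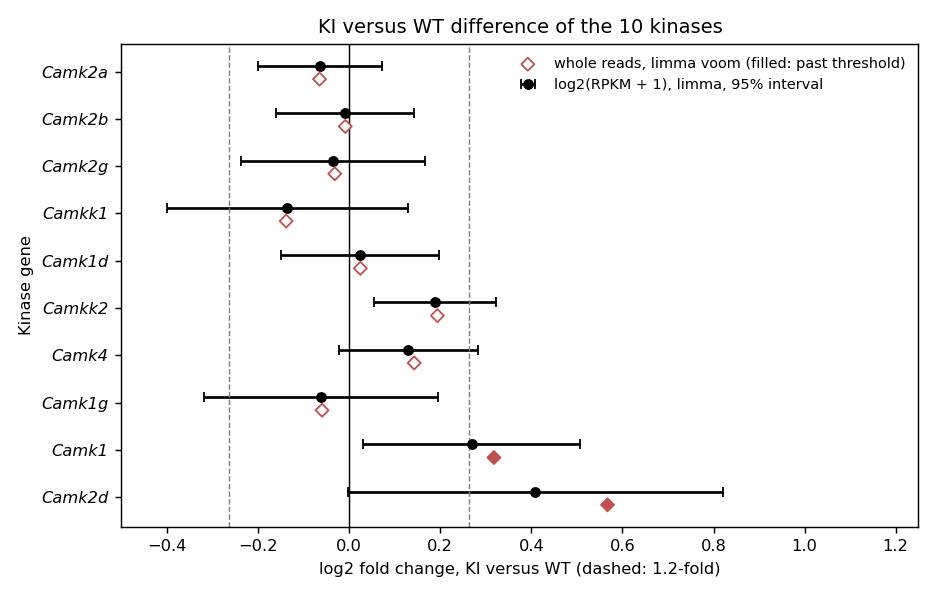
log2 fold change of KI against WT for the 10 kinases, with black points and 95% intervals from limma on log2(RPKM + 1) and red diamonds from limma voom on whole reads, filled where past the thresholds. The intervals of *Camkk2* (0.056 to 0.32) and *Camk1* (0.031 to 0.51) exclude 0, and only *Camk1* and *Camk2d* have filled diamonds.

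Among the CaMKII genes, the main neuronal subunits were at nearly the same level in both genotypes. *Camk2a* (ENSMUSG00000024617, GRCm38 chromosome 18, 60925618 to 60988152), whose product is the principal kinase of the postsynaptic density, was at 612 and 601 RPKM in WT and 590.2 and 570.1 RPKM in KI, from 39612 to 63628 reads. Both KI values were below both WT values, by a small margin. The means were 606 ± 7.64 and 580.2 ± 14.2 RPKM (SD, n = 2 each), and the log2 fold change was -0.064 with a 95% interval of -0.20 to 0.071 (adjusted p = 0.726 from limma). In bulk tissue, fewer cells of a type and less RNA per cell cannot be told apart, and the summed markers of excitatory neurons given above were also lower in both KI samples. Their part in the *Camk2a* values was not tested.

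*Camk2b* (ENSMUSG00000057897, chromosome 11, 5969644 to 6066362) encodes the β subunit, which ties the holoenzyme to actin. Its levels were 169 and 173 RPKM in WT and 177 and 164 RPKM in KI. The WT values lay between the KI values, and the log2 fold change was -0.0091 (95% interval -0.16 to 0.14). *Camk2g* (ENSMUSG00000021820, chromosome 14, 20734875 to 20794088), the γ subunit that can carry calcium-loaded calmodulin to the nucleus, was at 53.2 and 57.9 RPKM in WT and 57.2 and 51.3 RPKM in KI. These groups overlapped as well, with a log2 fold change of -0.035 (95% interval -0.24 to 0.17). For *Camk2a*, *Camk2b* and *Camk2g* the interval stayed inside a difference of 1.2-fold in either direction, which is 0.26 on the log2 scale.

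*Camk2d* (ENSMUSG00000053819, chromosome 3, 126596302 to 126846326), the δ subunit best known from heart muscle, was the least abundant of the 10 and had the widest difference. It was at 2.03 and 1.82 RPKM in WT, from 433 and 256 reads, and at 2.41 and 3.42 RPKM in KI, from 551 and 814 reads. Both KI samples were above both WT samples, and the KI samples also differed from each other. The exact 95% Poisson interval, which covers counting error only, was 2.21 to 2.61 RPKM in KI replicate 1 and 3.19 to 3.66 RPKM in KI replicate 2, so that the gap between the KI samples exceeded counting error. The interval of KI replicate 1 touched that of WT replicate 1, which was 1.84 to 2.23 RPKM. The WT mean was 1.92 ± 0.146 RPKM and the KI mean 2.91 ± 0.716 RPKM (SD, n = 2 samples each), a ratio of 1.51. On the log2(RPKM + 1) scale, which understates the change of a gene this low, the log2 fold change was 0.41 ± 0.16 (SE) with a 95% interval of -0.0022 to 0.82 and an adjusted p of 0.516 from limma. In voom it was 0.57 with an adjusted p of 0.0440. Without KI replicate 2 the limma value fell to 0.22 and the voom value to 0.31, and without KI replicate 1 they were 0.60 and 0.82. The voom value was 0.66 without WT replicate 1 and 0.50 without WT replicate 2. Each of these fits has 1 sample left in a group and takes its spread from the other group alone, so only the size is given.

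The region before the start of *Camk2d* is shown beside that of its more abundant relative *Camk2b*, as the gene with the widest difference and an abundant gene of the same enzyme. Each run is the 250 bases upstream of the RefSeq start on the coding strand (build GRCm38.p6), at chr3:126596701-126596950 (plus strand) for *Camk2d* and chr11:6065749-6065998 (minus strand) for *Camk2b*, and each lies in an intron of a longer GENCODE M21 transcript of the same gene.
Camk2d: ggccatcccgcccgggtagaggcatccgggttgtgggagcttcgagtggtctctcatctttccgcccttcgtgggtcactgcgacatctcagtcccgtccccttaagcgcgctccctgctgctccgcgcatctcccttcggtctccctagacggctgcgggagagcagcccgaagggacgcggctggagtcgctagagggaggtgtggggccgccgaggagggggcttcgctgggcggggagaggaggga
Camk2b: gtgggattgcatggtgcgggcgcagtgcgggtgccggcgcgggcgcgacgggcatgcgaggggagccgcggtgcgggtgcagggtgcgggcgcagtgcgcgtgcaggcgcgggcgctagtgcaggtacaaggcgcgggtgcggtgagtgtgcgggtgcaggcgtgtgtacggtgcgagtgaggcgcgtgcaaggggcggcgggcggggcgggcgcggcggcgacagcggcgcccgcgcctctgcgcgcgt
The *Camk2d* run was 68.4% G or C with 23 CpG dinucleotides and the *Camk2b* run 78.4% with 44, against a median of 52.4% over 32851 windows of the same length. Capitals would mark the CRE half-site TGACG, the E-box CACGTG or the TATA box TATAAA on either strand, none of which contains another, and neither run holds any of them. They occur in 17.8%, 6.02% and 12.4% of all windows.

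The 4 CaMKII genes were also compared as shares of their summed RPKM, which was 836 and 834 in WT and 827 and 789 in KI. *Camk2a* made up 73.2% and 72.0% of the sum in WT and 71.4% and 72.3% in KI. *Camk2b* made up 20.2% and 20.8% in WT and 21.4% and 20.8% in KI, and *Camk2g* 6.37% and 6.94% in WT and 6.91% and 6.51% in KI. For these genes the shares overlapped between the genotypes. The sizes of the shares also rest on the exon lengths used, which are the same in both genotypes. *Camk2d* contributed 0.242% and 0.218% in WT and 0.291% and 0.433% in KI, a mean difference of 0.132 percentage points (exact two-sided permutation test, p = 0.333, which is the smallest p that 2 samples against 2 can give). This difference was 0.0607 percentage points without KI replicate 2 and 0.203 without KI replicate 1.

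Both genes that encode the endogenous CaMKII inhibitors, small proteins that bind the active kinase, had higher values in the KI samples. *Camk2n1* was at 106 and 107 RPKM in WT and 140.0 and 115 RPKM in KI. *Camk2n2* was at 23.5 and 21.9 RPKM in WT and 36.8 and 32.7 RPKM in KI. In both genes the KI values were above the WT values, as in 24.0% of all genes tested, and KI replicate 1 was the highest. The log2 fold change was 0.25 for *Camk2n1* (95% interval -0.022 to 0.51, adjusted p = 0.533 from limma) and 0.59 for *Camk2n2* (95% interval 0.39 to 0.79, adjusted p = 0.307 from limma). In voom the adjusted p was 0.0935 for *Camk2n1*, whose difference of 0.25 stayed under 1.2-fold, and 0.0039 for *Camk2n2*, which was past both thresholds. With 1 sample left out in turn, the limma difference of *Camk2n2* ran from 0.51 to 0.67. Together, the inhibitor transcripts amounted to 15.5% of the summed CaMKII RPKM in each WT sample and to 21.4% and 18.7% in KI. *Camk2n1* lies on chromosome 4, 1.85 Mb from *Kdm1a*, whereas *Camk2n2* and all 10 kinases lie on other chromosomes.

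**Figure D3:**
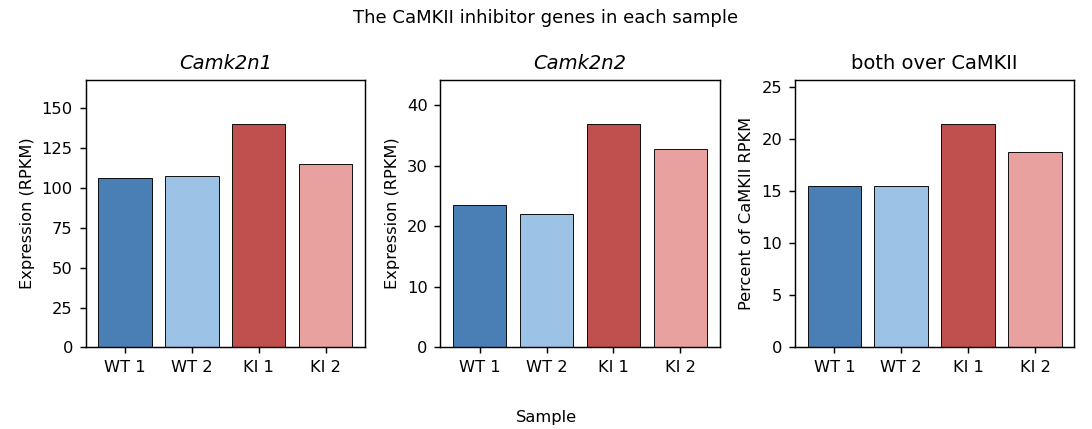
Bars give *Camk2n1* and *Camk2n2* in RPKM and the sum of both as a percentage of the summed RPKM of the 4 CaMKII genes, in each WT and KI sample, with axes starting at 0. The percentage is 15.5% in each WT sample, 21.4% in KI replicate 1 and 18.7% in KI replicate 2.

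Of the CaMKI genes, *Camk1* had groups that did not overlap, and *Camk1d* and *Camk1g* had groups that did. *Camk1* (ENSMUSG00000030272, chromosome 6, 113334124 to 113343984), the α isoform of CaMKI, was at 5.81 and 6.42 RPKM in WT and 8.02 and 7.13 RPKM in KI, from 344 to 700 reads. Both KI samples were above both WT samples, with means of 6.12 ± 0.432 and 7.58 ± 0.629 RPKM (SD, n = 2 each) and a ratio of 1.24. The log2 fold change was 0.27 ± 0.090 (SE; 95% interval 0.031 to 0.51, adjusted p = 0.490 from limma). In voom it was 0.32 with an adjusted p of 0.0977, just inside the threshold. That difference was under 1.2-fold without KI replicate 1 (0.24) and without WT replicate 1 (0.23). It was 0.40 without KI replicate 2 and 0.38 without WT replicate 2. In GENCODE M21, the exons of *Camk1* share 232 of 5975 bases with *Ogg1*, a DNA repair gene on the opposite strand. Use of strand in the counting is not given in the sources used here, so reads in those bases cannot be assigned to one gene. *Ogg1* itself was lower in KI, at 3.04 and 2.90 RPKM in WT and 2.73 and 2.66 RPKM in KI.

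*Camk1d* (ENSMUSG00000039145, chromosome 2, 5293457 to 5714515), the δ isoform and the most abundant of the CaMKI genes, was at 33.9 and 34.2 RPKM in WT and 36.5 and 32.9 RPKM in KI. The WT values lay between the KI values (log2 fold change 0.024, 95% interval -0.15 to 0.20). *Camk1g* (ENSMUSG00000016179, chromosome 1, 193346346 to 193370298), a membrane-anchored form involved in dendrite growth, was at 7.66 and 8.35 RPKM in WT and 7.03 and 8.24 RPKM in KI, and its groups overlapped (log2 fold change -0.063, 95% interval -0.32 to 0.19). *Camk1g* had the fewest reads of the 10, from 231 to 386 in a sample, and its interval does not exclude a difference of 1.2-fold downward.

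*Camk4* (ENSMUSG00000038128, chromosome 18, 32934931 to 33191228), which encodes the nuclear kinase that phosphorylates CREB, was at 8.93 and 8.86 RPKM in WT and 9.83 and 9.82 RPKM in KI. The replicates of each genotype were nearly equal and the groups did not overlap. The means were 8.90 ± 0.0453 and 9.83 ± 0.0113 RPKM (SD, n = 2 each). Within each genotype, the 2 samples thus lay closer to each other than the counting error of a single sample. The exact 95% interval in WT replicate 1, for example, ran from 8.48 to 9.40 RPKM. The log2 fold change was 0.13 (95% interval -0.023 to 0.28, adjusted p = 0.556 from limma), and in voom it was 0.14 with an adjusted p of 0.325. In GENCODE M21, *Camk4* shares 72 of 3259 exon bases with the non-coding gene *2310026I22Rik* on the opposite strand. This gene was at 0.172 and 0.261 RPKM in WT and 0.428 and 0.617 RPKM in KI. The other 8 kinases share no exon bases with another gene of that annotation.

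The genes of the upstream kinases showed different patterns. *Camkk2* (ENSMUSG00000029471, chromosome 5, 122731170 to 122779409), which phosphorylates CaMKI, CaMKIV and the energy sensor AMPK, was at 26.6 and 25.9 RPKM in WT and 29.5 and 30.7 RPKM in KI. The KI samples were above the WT samples by more than the spread within either group, with means of 26.3 ± 0.476 and 30.1 ± 0.868 RPKM (SD, n = 2 each). The log2 fold change was 0.19 ± 0.050 (SE; 95% interval 0.056 to 0.32, adjusted p = 0.441 from limma). In voom the adjusted p was 0.140. With 1 sample left out in turn, the voom difference ran from 0.16 to 0.22 and stayed under 1.2-fold. *Camkk1* (ENSMUSG00000020785, chromosome 11, 73019008 to 73042073), the other CaMK kinase, was at 51.4 and 50.7 RPKM in WT and 42.0 and 51.1 RPKM in KI. Only KI replicate 1 was low, and the groups overlapped (log2 fold change -0.14, 95% interval -0.40 to 0.13). Without KI replicate 1 the log2 fold change was 0.0023 in limma, and without KI replicate 2 it was -0.27 in limma and -0.28 in voom. *Camkk1* exceeded *Camkk2* in every sample, with a ratio of 1.93 and 1.95 in WT and 1.43 and 1.66 in KI.

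**Figure D4:**
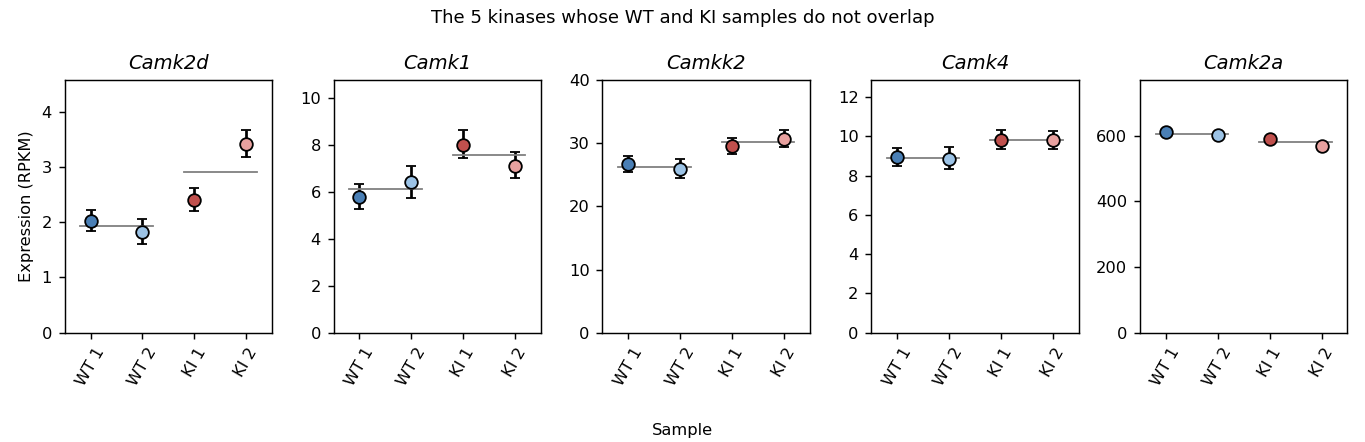
RPKM of the 5 kinases whose WT and KI values do not overlap, by sample, with axes starting at 0, bars for exact 95% Poisson intervals of the reads (counting error only) and grey lines for group means. KI is above WT in *Camk2d*, *Camk1*, *Camkk2* and *Camk4* and below it in *Camk2a*, and *Camk2d* has the widest gap within KI (2.41 and 3.42 RPKM).

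The profile of *Camk2d* over the 4 samples (lowest in WT replicate 2, highest in KI replicate 2) was compared with those of 18435 other genes as a description. Of these, 17 lay within a distance of 0.1 on the centred log2(RPKM + 1) scale. Among the nearest 5 was *Eif2ak2*, the interferon-induced kinase PKR, at 1.27 and 1.06 RPKM in WT and 1.60 and 2.16 RPKM in KI. The short non-coding genes *Snora44* and *Mir3103* and the gene model *Gm13925* were also among them, and their values rest on few reads.

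Around the kinases, 56 genes in 10 lists by role were examined, of which 55 were tested. In limma, 0 of the 55 passed the thresholds, and 8 had an unadjusted p under 0.05, against 9.62% of all genes. In voom, 5 of the 55 were past the thresholds upward (*Camk2n2*, *Pnck*, *Rcan2*, *Arc* and *Npas4*) and 0 downward, against 1.3% and 0.439% of all genes. Fits with 1 sample left in a group cannot show whether these 5 calls hold, because their spread comes from the other group alone. The KI samples both lay above the WT samples in 18 of the 56 genes and below in 14, against 24.0% and 18.1% of all genes tested, and the median log2 fold change of the 55 was 0.0013. The medians of most lists lay near 0.

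Of the genes for calmodulin, the calcium sensor, *Calm3* had the highest mean over the 4 samples, although within a sample it was the highest only in KI replicate 1. It was at 701.5 and 700.1 RPKM in WT and 732 and 717 RPKM in KI. Its KI values were above its WT values by a small margin, with a log2 fold change of 0.049. Of the 3 calmodulin-binding buffers, which hold calmodulin at the membrane or alter its calcium exchange, both KI values were above both WT values in *Gap43* and *Pcp4*, while *Nrgn*, the most abundant, overlapped. Over all genes tested, 24.0% had both KI values above both WT values. *Nrgn* was at 509 and 556 RPKM in WT and 599.9 and 542 RPKM in KI, and *Gap43* at 71.2 and 68.0 RPKM in WT and 72.5 and 88.2 RPKM in KI.

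Among the 10 other CaMK-related kinases, KI was above WT in 2 and below in 3, against 24.0% and 18.1% of all genes. *Dapk2* was too low to be tested. *Pnck*, a close relative of CaMKI, was at 24.2 and 23.5 RPKM in WT and 30.5 and 31.4 RPKM in KI, with a log2 fold change of 0.36 (95% interval 0.23 to 0.49, adjusted p = 0.307 from limma and 0.0201 in voom). It was thus the CaMK-related kinase gene with the largest difference in that list, and *Camkv*, a pseudokinase of synapses and the most abundant, overlapped at 211 and 228 RPKM in WT and 219 and 234 RPKM in KI. Of the 4 phosphatase genes that can reverse CaMK phosphorylation, 1 was higher in both KI samples (24.0% of all genes) and none was lower (18.1%). *Ppp1ca* was the most abundant of them, at 98.8 and 107.5 RPKM in WT and 107.5 and 105 RPKM in KI, and the largest log2 fold change, that of *Ppp2ca*, was 0.048.

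Of the 6 calcineurin genes, which encode the calcium-dependent phosphatase and its regulators, 2 were higher and 2 lower in both KI samples. Over all genes tested, 24.0% were higher and 18.1% lower in both KI samples. *Ppp3ca*, the main catalytic subunit, was at 375 and 369 RPKM in WT and 309.5 and 352 RPKM in KI, a log2 fold change of -0.17 (adjusted p = 0.556 from limma). *Rcan2*, a calcineurin inhibitor, was at 30.04 and 32.9 RPKM in WT and 39.6 and 36.8 RPKM in KI, a log2 fold change of 0.27 (adjusted p = 0.435 from limma and 0.0431 in voom). The 6 subunit genes of AMPK, a target of CAMKK2, were higher in 1 and lower in 1, and all lay between -0.10 and 0.083 on the log2 scale.

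Among the 10 nuclear targets, 2 were higher and 3 lower in both KI samples, against 24.0% and 18.1% of all genes. *Mef2d* was the most abundant, at 45.6 and 47.9 RPKM in WT and 47.3 and 45.5 RPKM in KI, and *Crtc1*, a CREB coactivator, had the largest log2 fold change, at -0.16 (adjusted p = 0.482 from limma). Of the 6 synaptic partners and substrates, 5 were lower in both KI samples (18.1% of all genes) and none was higher (24.0%), with a median log2 fold change of -0.067. *Gria1*, an AMPA receptor subunit that CaMKII phosphorylates, was at 235 and 228 RPKM in WT and 223 and 221 RPKM in KI. *Grin2b*, the NMDA receptor subunit that docks CaMKII, had the largest difference of the list, with a log2 fold change of -0.14 (adjusted p = 0.608 from limma). None of these 6 was past the thresholds in limma or voom.

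Of the 6 activity-induced genes, which neurons transcribe after calcium entry, 5 were higher in both KI samples (24.0% of all genes) and none was lower (18.1%), with a median log2 fold change of 0.23. *Arc* had the highest level, at 61.7 and 52.3 RPKM in WT and 70.1 and 69.8 RPKM in KI (log2 fold change 0.30, adjusted p = 0.476 from limma and 0.0431 in voom). *Npas4* had the largest log2 fold change, 0.54, with 4.87 and 3.46 RPKM in WT and 6.00 and 6.92 RPKM in KI (adjusted p = 0.476 from limma and 0.0456 in voom). WT replicate 2, the sample with the fewest reads, was the lowest of the 4 in both genes. It was also the lowest in *Fos*, *Egr1* and *Nr4a1*, and the highest in *Bdnf*. RPKM is already divided by depth, and a part of depth in these values was not tested.

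**Figure D5:**
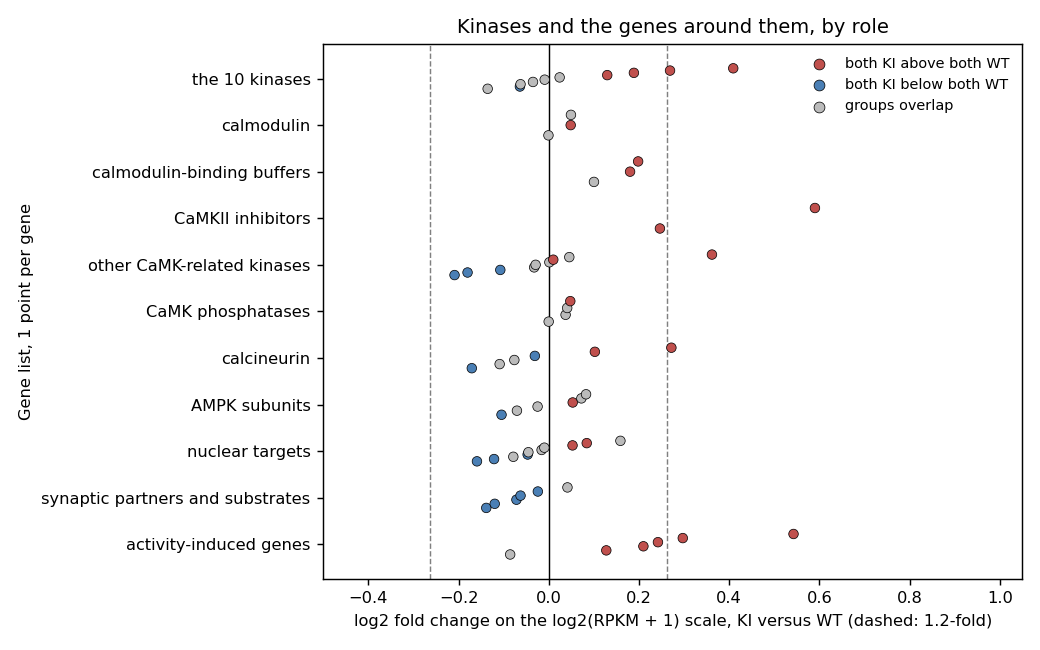
log2 fold change of KI against WT on the log2(RPKM + 1) scale for the 10 kinases and for 55 genes in 10 lists by role, with 1 point per gene coloured by whether both KI values lie above or below both WT values. Most points lie within 1.2-fold (dashed lines), and the activity-induced genes (median 0.23) and the CaMKII inhibitors lie to the right of 0 apart from 1 activity-induced gene.

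The levels of other marker lists differed between the samples as well, and their part in the kinase values was not tested. Of 8 markers of hippocampal excitatory neurons, 0 were higher and 4 lower in both KI samples, against 24.0% and 18.1% of all genes, and voom placed 2 past the thresholds, both lower in KI. These were *Prox1*, a marker of dentate granule cells, at 17.3 and 16.9 RPKM in WT and 10.2 and 13.1 RPKM in KI (adjusted p = 0.0039), and *C1ql2*, at 41.8 and 44.0 RPKM in WT and 30.7 and 34.2 RPKM in KI (adjusted p = 0.0130). *Wfs1*, a marker of CA1, split the KI samples, at 42.2 and 41.2 RPKM in WT and 28.6 and 50.9 RPKM in KI. *Prox1*, *C1ql2* and *Wfs1* were picked for mention after their values were seen. In voom, 3 of 6 neocortex markers, 2 of 7 striatum markers tested, 1 of 4 thalamus markers tested and 1 of 3 choroid plexus markers tested were past the thresholds upward, and 1 of 8 endothelial and mural markers in each direction. Over all genes, voom placed 1.3% past them upward and 0.439% downward. Markers of neighbouring tissue were higher in KI in sum, at 49.0 and 51.9 RPKM in WT against 57.0 and 55.3 RPKM in KI for 6 genes of neocortex (4 higher, 0 lower), 50.1 and 48.3 against 55.4 and 51.8 RPKM for 8 genes of striatum (4 higher, 2 lower) and 15.6 and 15.5 against 22.0 and 17.4 RPKM for 7 genes of thalamus (3 higher, 2 lower), of which *Gbx2* was at 0 in 2 samples. The 5 markers of choroid plexus summed to 14.1 and 19.7 RPKM in WT and 60.6 and 16.5 RPKM in KI (1 higher, 0 lower), so that KI replicate 1, the sample with the low *Camkk1* value, stood apart, and *Kcnj13* was at 0 in WT replicate 2. Interneuron markers summed to between 339 and 362 RPKM in a sample (3 of 7 higher, 1 lower), astrocyte markers to between 252 and 260.2 RPKM (2 of 5 higher, 1 lower), oligodendrocyte markers to between 712 and 945 RPKM (0 of 5 higher or lower), microglial markers to between 52.8 and 57.4 RPKM (3 of 5 higher, 1 lower) and endothelial and mural markers to between 70.1 and 76.5 RPKM (2 of 8 higher, 3 lower).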

How the data were processed

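RNA-seq was run on hippocampal mRNA from 2 samples of each genotype, WT and *Lsd1* KI. The authors aligned read pairs to mm10 (with GSNAP, after CASAVA, per the submitters' processing notes), counted them on Ensembl 74 genes and deposited RPKM, counts divided by exon length and by depth, in 1 table per sample. A gene absent from a table was given 0. No scaling between samples beyond RPKM is given in the sources used here. The study's own tool for differential expression needs counts, so limma 3.58.1 (R 4.3.3) was fitted to log2(RPKM + 1), the pseudocount being 1 RPKM, with the empirical Bayes step following the mean-variance trend. The 18436 genes that reached 0.5 RPKM in 2 or more samples were tested, and p-values were adjusted over them by Benjamini-Hochberg. Tests were two-sided, and a gene was past the thresholds at an adjusted p under 0.1 and at least 1.2-fold. Mapped reads and reads per gene were worked out from the whole-read steps of the RPKM values, within 0.0001 of a read in 100% of genes. With GENCODE M21 exon lengths this held for 15468 of 26328 genes, and for the rest the smallest length giving whole reads in all samples was used. The total of 8827967 to 14949756 mapped reads per sample sets the precision, 1 read on 2 kb of exon being worth 0.0334 to 0.0566 RPKM.

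Named were the 10 kinases and, of each list by role, the gene with the highest mean RPKM and the one with the largest absolute log2 fold change. Some genes that this rule covers are not reported here. Other pathway genes were named where a count of at most 5 called for it, after their values were seen. The kinases, lists and markers were chosen with earlier results of these data known. The alternatives were another pseudocount, other filters, the replicate block, no trend, quantile normalization, TPM scaling, other thresholds and each sample left out in turn. limma voom on whole reads, alone, with the block and with each sample left out, and a filter of 10 reads with the block, were added after the data had been seen. In all, 19 fits were made across the genes. The limma code was run on simulated data as a check of the code alone. High recovery was required only with more samples per group than here and a larger difference than those of the kinases. This check therefore does not show how well differences are found with 2 samples per group. Upstream sequence came from RefSeq (GRCm38.p6), whose table held 7 of the 10 kinases, and gene positions from GENCODE M21 on GRCm38. Python 3.11.15 with pandas 2.3.3, numpy 2.4.6, scipy 1.17.1 and matplotlib 3.10.9 served for the other steps.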

Additional observations from a re-analysis of the deposited data

How the results depend on the processing

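The count of kinases past the thresholds was 0 in limma and in every limma alternative with all 4 samples, the replicate block included. The direction of the difference was the same in all 18 alternatives for 5 of the 10 kinases (*Camk1*, *Camk2a*, *Camk2d*, *Camk4* and *Camkk2*). These are the 5 whose groups do not overlap, so leaving out a sample or changing the pseudocount, filter or trend could not reverse them. Their constant direction is therefore no added support. The labels number the replicates 1 and 2 in both genotypes. Between samples with the same number, the correlation of deviations from the group means was -0.025 across 18436 genes. With 2 samples in each group both numbers give this same value. It cannot show whether samples with the same number share anything else. With the replicate block 0 genes were past the thresholds, as in limma without it. Over all genes the count of 0 became 20 without the mean-variance trend, 50 when the replicate block was joined to a filter of 10 reads, 278 in voom and 441 in voom with the replicate block. The kinases past the thresholds were 2 in voom and 2 in voom with the block, *Camk2d* (log2 fold change 0.57 and 0.56) and *Camk1* (0.32 and 0.32). With 1 sample left out, over limma and voom, the count of genes ran from 0 to 794 and that of kinases from 0 to 3, the highest without KI replicate 2, where *Camkk1* was also past the thresholds in voom, downward (-0.28). A fit with 1 sample in a group assumes that this sample varies like the other group. Over the same fits the log2 fold change ran from 0.22 to 0.82 for *Camk2d*, 0.19 to 0.40 for *Camk1*, -0.065 to 0.049 for *Camk2b*, -0.11 to 0.047 for *Camk2g*, -0.051 to 0.10 for *Camk1d*, -0.17 to 0.054 for *Camk1g* and -0.28 to 0.0023 for *Camkk1*, and the last 5 thus changed direction. The kinases with both KI values below both WT values were 2 instead of 1 with TPM scaling (*Camk2a* and *Camkk1*), and those above were 4 as before. The share of all genes under that scaling was not worked out. The difference in the share of *Camk2g* ran from -0.230 to 0.346 percentage points. Why the limma and voom counts differ was not tested. With 2 samples in each group the exact permutation test cannot reach 0.05, and the depth of WT replicate 2 limits *Camk2d* and *Camk1g* most.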
